A study of Homo sapiens with 6 samples.

Results

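Interferon-stimulated genes are the genes that cells switch on when interferon binds its receptors, and many of their products block viruses. Here 53 of them were followed among the 60504 genes of an RNA-seq table of WM164 cells. They were taken from the table by symbol, from a list drawn up with earlier results of these data known, and the rule also took in the interferon receptors and the transcription factors of the response. WM164 is a human melanoma cell line with a BRAF V600E mutation. The study asked how added HDAC8, a class I histone deacetylase, changes the transcription of such cells. In both groups the cells had been transfected with an expression plasmid, which was empty in the EV group and carried HDAC8 in the HDAC8 group, and each group had 3 libraries. According to the methods of the study, transfected cells were held under hygromycin. Whether a line was a pool or a clone, and whether the libraries of a group came from separate cultures, is not given in the sources used here, so the p-values measure the spread between these libraries, which may be technical. The labels name no interferon, drug or virus in either group.

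Type I interferons (alpha and beta) bind a receptor made of IFNAR1 and IFNAR2, and interferon gamma binds IFNGR1 and IFNGR2. Janus kinases on the receptors then phosphorylate STAT proteins. The complex ISGF3, which holds STAT2 and IRF9, binds the interferon-stimulated response element (ISRE), a short repeat with the core GAAA, in front of its target genes, while STAT dimers formed after interferon gamma bind the gamma-activated site (GAS). The products of the target genes sense, edit or cut foreign RNA, hold virus particles at the membrane, load peptides for antigen presentation, or attach the ubiquitin-like protein ISG15 to other proteins. Many tumour cells keep a low level of this program without any added interferon.

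The promoters of some members are shown because the choice went by symbol and not by sequence. The members are nevertheless known interferon-stimulated genes, and the ISRE lies in front of such genes. A high share with the ISRE thus follows from the choice and is no independent result. Promoters came from RefSeq (GRCh38.p14), from 250 bases before to 50 bases after each annotated start, and 42 of the 53 members matched by symbol. The ISRE letters searched were GAAA, any 2 bases and GAAA again, read on both strands (TTTC, any 2 bases and TTTC on the other). They stood in a promoter of 27 of these 42 members (64.3%), against 4.38% of all 27305 symbols with a promoter (3.57% of 35116 promoters, since some symbols have several). The letters TTCNNNGAA, a GAS core that reads alike on both strands, stood in a promoter of 12 of 42 members (28.6%), against 9.38% of symbols (7.66% of promoters). Printed below, 5′ to 3′ on the strand of the gene, are the 160 bases before the start, with ISRE matches in capitals. The leading 7 belong to genes that were lower in the libraries labelled HDAC8, and the closing 3 (ISG15, IFIT1 and HERC5) to genes that were not called.
BST2 (chr19:17405631-17405790, minus strand): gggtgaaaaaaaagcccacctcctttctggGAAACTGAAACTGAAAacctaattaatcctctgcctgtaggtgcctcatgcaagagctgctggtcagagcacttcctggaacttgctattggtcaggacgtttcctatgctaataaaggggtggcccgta
OAS3 (chr12:112938314-112938473, plus strand): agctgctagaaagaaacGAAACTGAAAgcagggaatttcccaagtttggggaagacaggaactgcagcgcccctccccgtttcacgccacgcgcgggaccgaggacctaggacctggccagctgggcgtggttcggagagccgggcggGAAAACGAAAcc
IFITM1 (chr11:313880-314039, plus strand): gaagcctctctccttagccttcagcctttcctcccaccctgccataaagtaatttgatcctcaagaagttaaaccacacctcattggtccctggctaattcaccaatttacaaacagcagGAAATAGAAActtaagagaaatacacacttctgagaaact
IFITM3 (chr11:320861-321020, minus strand): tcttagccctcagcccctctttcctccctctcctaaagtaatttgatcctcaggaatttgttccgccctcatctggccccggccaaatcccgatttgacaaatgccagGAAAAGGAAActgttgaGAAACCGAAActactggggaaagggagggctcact
GBP1 (chr1:89065209-89065368, minus strand): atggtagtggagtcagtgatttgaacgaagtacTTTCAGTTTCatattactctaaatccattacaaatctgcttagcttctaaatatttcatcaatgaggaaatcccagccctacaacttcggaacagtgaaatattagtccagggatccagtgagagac
IFI6 (chr1:27672193-27672352, minus strand): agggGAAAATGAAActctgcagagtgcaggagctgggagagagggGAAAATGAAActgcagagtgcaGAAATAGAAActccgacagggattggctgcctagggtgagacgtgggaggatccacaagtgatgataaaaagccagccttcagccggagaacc
LGALS3BP (chr17:78979924-78980083, minus strand): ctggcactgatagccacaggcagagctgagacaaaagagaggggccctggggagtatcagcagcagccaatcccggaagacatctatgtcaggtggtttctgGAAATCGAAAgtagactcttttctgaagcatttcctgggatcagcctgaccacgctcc
ISG15 (chr1:1013337-1013496, plus strand): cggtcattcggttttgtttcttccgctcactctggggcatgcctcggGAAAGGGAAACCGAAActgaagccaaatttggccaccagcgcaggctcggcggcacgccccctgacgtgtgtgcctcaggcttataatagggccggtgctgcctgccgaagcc
IFIT1 (chr10:89392463-89392622, plus strand): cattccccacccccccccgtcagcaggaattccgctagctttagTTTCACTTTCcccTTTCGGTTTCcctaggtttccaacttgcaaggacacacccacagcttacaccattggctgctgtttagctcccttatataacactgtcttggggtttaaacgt
HERC5 (chr4:88456959-88457118, plus strand): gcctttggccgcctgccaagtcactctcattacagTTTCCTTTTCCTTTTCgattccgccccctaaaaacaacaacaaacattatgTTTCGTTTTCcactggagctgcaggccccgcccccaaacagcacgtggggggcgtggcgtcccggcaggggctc

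IFI6 and HERC5 each held 3 matches, and in BST2, ISG15 and HERC5 neighbouring matches ran into each other. IFITM1 held 1 more match, which began 6 bases before the start and ran past it. In BST2 a GAS match began 136 bases before the start and overlapped the ISRE match that began at 130. Of the 9 matched members called lower, 7 held the ISRE letters, and IFI35 and PSMB9 did not. Of the 33 other matched members, 20 held them. The motif therefore occurred both in genes that were lower and in genes that were not called, as the promoters of BST2 and ISG15 show. No promoter entry was matched for IFNAR2, IRF7, USP18, IFIT2, OAS2, OASL, IFITM2, MX2, TRIM22, PML and GBP2.

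Library totals ran from 34741083 to 42041462 estimated reads and overlapped between groups. The gene carried by the vector was checked first: HDAC8 had a mean normalized count (estimated reads divided by the size factor of the library) of 422.3 ± 49.96 (SD, n = 3) in EV and 468.0 ± 20.3 (SD, n = 3) in the libraries labelled HDAC8. Its log2 fold change was 0.15 (95% interval -0.41 to 0.70, DESeq2 adjusted p = 0.856), so a rise of the transcript was not detectable here, and directions below are between libraries as labelled. HDAC8 protein, which the study probed by immunoblot in transfected cells, is not measured by these counts. Mitochondrially encoded transcripts took 9.66% to 12.8% of the counts in EV and 4.46% to 7.94% in the libraries labelled HDAC8; with those genes left out, the same numbers of members were called (10 lower and 1 higher). All 7 melanocyte lineage markers were detected in EV, and 4 of them were called lower. TYRP1 was low, with 60, 35 and 22 reads in EV and 0, 0 and 16 in the libraries labelled HDAC8. Among leukocyte markers TYROBP was at 0 in every library and PTPRC had at most 3 reads, while the summed level was 2372 to 3355 in EV and 4322 to 6279 in the libraries labelled HDAC8, most of it CD68; CD3E was at 0 in EV and at 50.1 to 91.1 normalized counts in the others. The 6 fibroblast markers (DCN at 0 throughout) summed to 2366 to 2869 in EV and 1150 to 2188 in the libraries labelled HDAC8, and the 4 endothelial (CDH5 at 0) and 4 keratinocyte markers (KRT1 at 0) to at most 218 and 86.7. The part of these marker levels in the results was not tested, and in bulk RNA fewer cells of a type and less RNA per cell cannot be told apart.

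In all, 10 of the 53 interferon-stimulated genes were lower in the libraries labelled HDAC8 and 1 was higher. The 10 were BST2, PSMB9, IFITM1, IFI35, USP18, GBP1, OAS3, IFITM3, LGALS3BP and IFI6, and the 1 was GBP2. A call needed a Benjamini-Hochberg adjusted p of DESeq2 under 0.05 together with a log2 fold change of 0.58 or more in either direction. The 10 members called lower were 18.9% of the 53, beside 5.44% of the 21021 genes with an adjusted p, and the 1 member called higher was 1.89%, beside 5.57%. The bases of these shares differ, since 45 of the 53 members had an adjusted p. Among the 42 members whose mean normalized count reached 50, the same 10 and 1 were called, where the shares over all genes at that level were 6.64% lower and 7.38% higher. The 3 libraries of each group did not overlap for 16 members that were lower and 3 that were higher (all genes with a total of at least 10 counts: 12.7% lower, 11.3% higher). With the same thresholds edgeR called 9 members lower and 1 higher (4.63% and 4.67% of all genes it tested), and limma-voom 10 lower and 1 higher (5.14% and 4.88%). The other 42 of the 53 were not called by DESeq2. Over the 50 members with a total of at least 10 counts, called ones included, 37 log2 fold changes were negative and 13 positive, with a median of -0.31, beside a median over all 26162 genes tested of -0.00012.

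**Figure D1:**
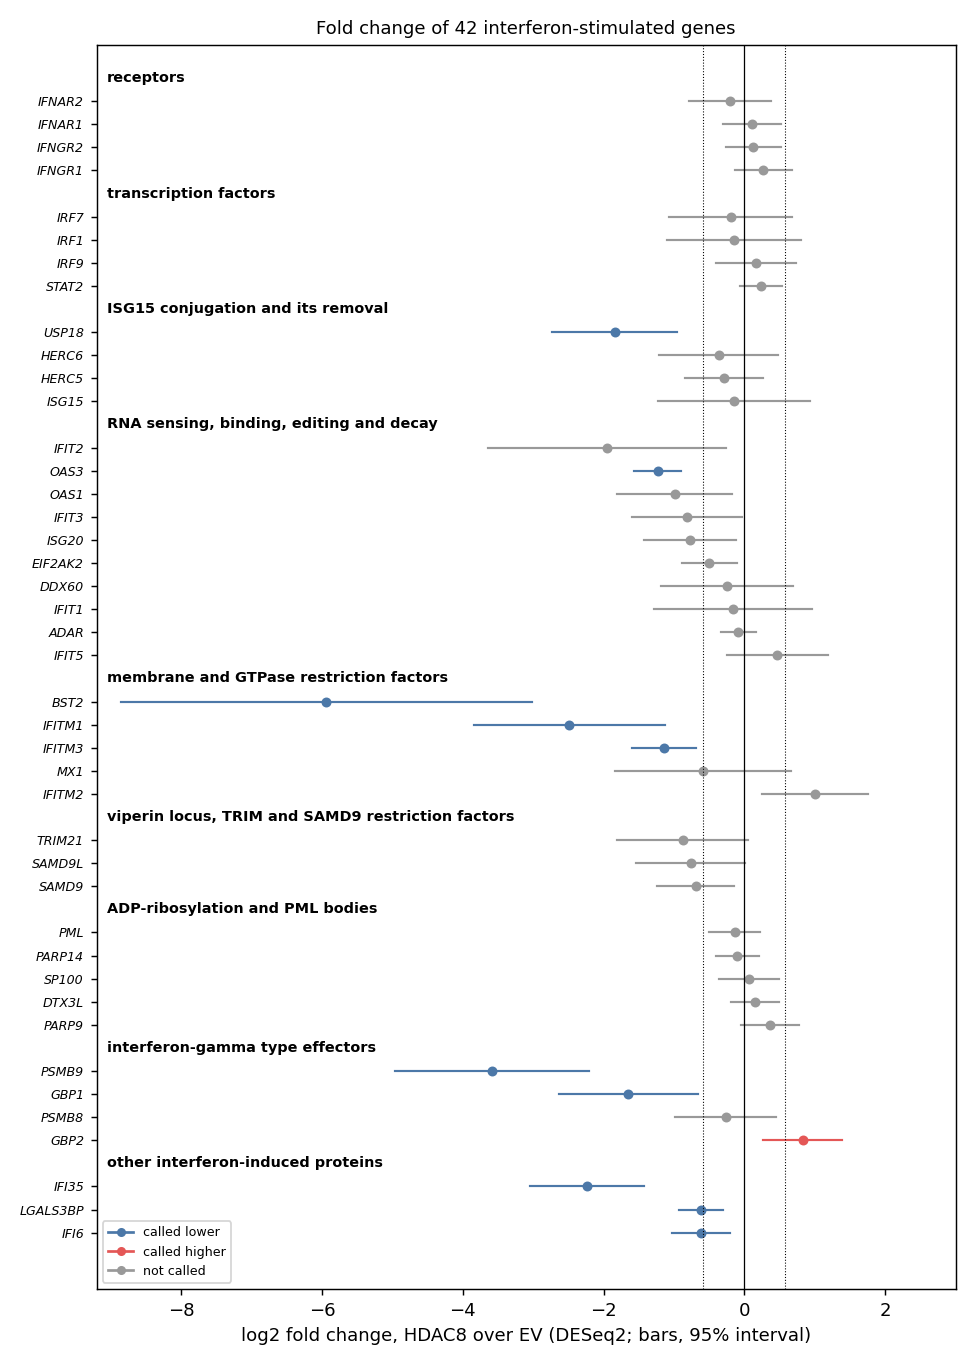
Log2 fold change (HDAC8 over EV, DESeq2) of the 42 members whose mean normalized count reached 50, grouped by role; points are estimates, bars 95% intervals, and dotted lines mark 0.58 in either direction. The 10 members called lower (blue) lie in 5 of the 9 roles, and GBP2 is the 1 member called higher (red). The estimates of receptors and transcription factors sit near 0, but the intervals of IRF1 (-1.10 to 0.81) and IRF7 (-1.07 to 0.68) pass both dotted lines.

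Within libraries, the median of these 42 members relative to the EV mean was -0.09, 0.04 and 0.04 (log2) in EV 1 to 3 and -0.60, -0.26 and -0.42 in HDAC8 1 to 3. Every library labelled HDAC8 was thus lower than every EV library, while the same median over all 14451 genes at that level lay between -0.03 and -0.0036 in all 6. In HDAC8 1, 35 of the 42 members were below their EV mean, against 28 and 29 in HDAC8 2 and 3 and 16 to 28 in the EV libraries.

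**Figure D2:**
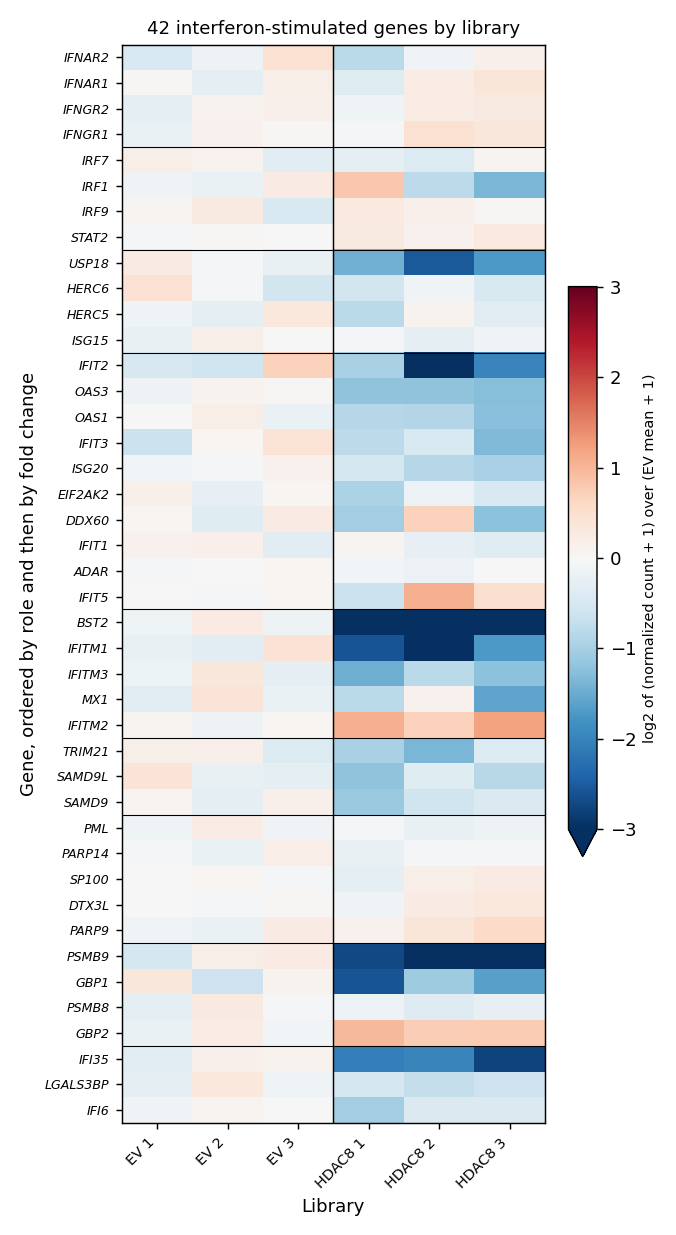
Level of the same 42 members in each of the 6 libraries, as log2 of (normalized count + 1) over the EV mean + 1; rows are ordered by role and fold change, and the colour scale stops at 3 in either direction. The rows of BST2, PSMB9, IFITM1 and IFI35 are dark blue in all 3 libraries labelled HDAC8, and for IRF1, IFIT5 and IFNAR1 the colour of HDAC8 1 is opposite to that of HDAC8 2 and 3.

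The receptors were expressed and were not called. IFNAR1, the chain that TYK2 binds, had a mean of 2598 ± 396 normalized counts (SD, n = 3) in EV and 2795 ± 692 (SD, n = 3) in the libraries labelled HDAC8. The log2 fold changes of IFNAR1, IFNAR2, IFNGR1 and IFNGR2 ran from -0.20 to 0.27 (DESeq2 adjusted p from 0.499 to 0.865), and the groups overlapped for all 4. The widest of the 4 intervals, that of IFNAR2, ran from -0.78 to 0.38, and 45.4% of the 100-base stretches of its transcript also occur in the read-through gene IFNAR2-IL10RB.

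None of the 4 transcription factors was called either. STAT2, the subunit of ISGF3 that activates transcription, had 2438, 2530 and 2484 normalized counts in EV and 3014, 2732 and 3050 in the libraries labelled HDAC8. The groups did not overlap, but the log2 fold change was 0.24, with an SE of 0.15 and an adjusted p of 0.366 by DESeq2. IRF9, which gives ISGF3 its DNA contact, had a log2 fold change of 0.16 and IRF7, which amplifies interferon alpha transcription, of -0.19. For IRF9, 92.6% of the 100-base stretches are shared with an overlapping gene model, so its level is uncertain. IRF1, an activator that responds to interferon gamma, had 326.1, 306.3 and 416.7 normalized counts in EV and 609.7, 203.8 and 133.9 in the libraries labelled HDAC8. Its means were close (349.7 ± 58.9 and 315.8 ± 257, SD, n = 3) because HDAC8 1 was above every EV library and HDAC8 2 and 3 were below them all.

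The effectors that act at membranes held 3 of the 10 lower members. BST2 (tetherin, chr19:17402939-17405630), which ties budding virus particles to the cell surface, had 904.9, 1162 and 891.5 normalized counts in EV and 0, 8.19 and 40.3 in the libraries labelled HDAC8. The groups lay far apart, and in HDAC8 1 no read was counted at a total of 41852045, which allows up to 2.57 normalized counts (3 reads, counting error only). The fitted log2 fold change of BST2 was -5.94 (SE 1.49, DESeq2 adjusted p = 0.0012), with a wide interval of -8.86 to -3.02. This was the largest change in size among the members called.

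Of the 3 IFITM genes, which code for small membrane proteins that hinder virus entry and lie side by side on chromosome 11, IFITM1 and IFITM3 were lower and IFITM2 was not called. IFITM3 (chr11:319676-329475) had 2369, 3373 and 2201 normalized counts in EV and 952.6, 1519 and 1130 in the libraries labelled HDAC8 (log2 fold change -1.14, SE 0.23, adjusted p = 2.03e-05 by DESeq2). IFITM1 (chr11:310041-315272) had 123.7, 116.7 and 195.1 against 23.1, 11.3 and 43.6 (log2 fold change -2.49, SE 0.69, adjusted p = 0.0045 by DESeq2). Both were lower in each library labelled HDAC8 than in any EV library, and IFITM1 lost the call without EV 3 (adjusted p = 0.112; from 0.00015 to 0.112 over 15 alternatives, by DESeq2 except for the edgeR and limma-voom fits). IFITM2 had 162.5, 136.4 and 158.6 against 320.7, 248.9 and 351.7 and did not pass the test (log2 fold change 1.01, SE 0.39, DESeq2 adjusted p = 0.0614), although its groups did not overlap. The transcripts are alike: 50.1% of the 100-base stretches of IFITM1, 8.2% of those of IFITM3 and 2.09% of those of IFITM2 occur in another gene, so the split of reads among them is uncertain. Their sum was 2945 ± 592 normalized counts (SD, n = 3) in EV and 1534 ± 241 (SD, n = 3) in the libraries labelled HDAC8, a ratio of 0.521. MX1, a GTPase that traps viral nucleoproteins, was not called (log2 fold change -0.59, interval -1.84 to 0.66, DESeq2 adjusted p = 0.680), and MX2 had at most 12 reads in any library.

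**Figure D3:**
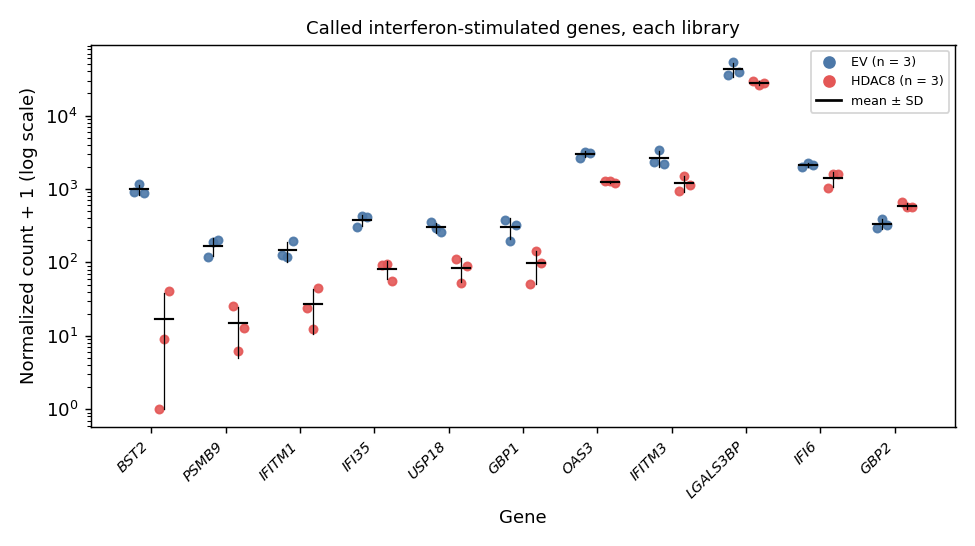
Normalized counts + 1 (log axis) of the 11 called members in each library, EV in blue and HDAC8 in red; horizontal bars are means and vertical bars SD (n = 3), stopped at 1 where the mean less the SD is below 0. The groups do not overlap for any of the 11; BST2 spans 0 to 40.3 normalized counts within the libraries labelled HDAC8, and OAS3 has the smallest spread there relative to its mean.

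Of the 12 members that sense, bind, edit or degrade RNA, OAS3 was the 1 called. OAS3 (chr12:112938051-112976460), an oligoadenylate synthetase that switches on RNase L, had 2652, 3196 and 3061 normalized counts in EV and 1282, 1292 and 1219 in the libraries labelled HDAC8. Its log2 fold change was -1.23, with an SE of 0.17 and an adjusted p of 2.08e-11 by DESeq2, the smallest adjusted p of any member. OAS1, its neighbour, had 253.8, 287.7 and 221.7 against 139.4, 138.3 and 106.7, groups that did not overlap, with a log2 fold change of -0.99 that did not pass the test (SE 0.42, DESeq2 adjusted p = 0.1). OAS2 and OASL had at most 20 reads in any library. The 4 genes together summed to 3229 ± 298 normalized counts (SD, n = 3) in EV and 1403 ± 54.4 (SD, n = 3) in the libraries labelled HDAC8.

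The 4 IFIT genes, whose products bind viral RNA ends and lie in a row on chromosome 10, gave no call and no common direction. IFIT2 had 97.5, 88.7 and 220.7 normalized counts in EV and 68.4, 3.07 and 33.8 in the libraries labelled HDAC8 (log2 fold change -1.95, SE 0.86, DESeq2 adjusted p = 0.127). IFIT3 had a log2 fold change of -0.81 (DESeq2 adjusted p = 0.188) and IFIT1 of -0.16 (0.939). IFIT5 had 492.8, 482.8 and 517.2 in EV but 318.9, 1048 and 700.2 in the libraries labelled HDAC8, of which HDAC8 1 was below every EV library and the others above. The exonuclease gene ISG20 (-0.77, DESeq2 adjusted p = 0.117) did not overlap between groups, the kinase gene EIF2AK2 (PKR) did overlap (-0.49, 0.0806), and the editing enzyme ADAR, the most abundant of the RNA group per transcript length, had the narrowest interval (-0.33 to 0.16). DDX60, a helicase gene, had 185.6, 623.7 and 163.3 in the libraries labelled HDAC8 around EV values of 297.9 to 454.1. Without HDAC8 2, DDX60 (log2 fold change -1.14) and EIF2AK2 (-0.67) were called lower.

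In the ISG15 conjugation pathway, ISG15 itself did not pass the test while its protease was lower. ISG15 had 89.1, 116.7 and 105.4 normalized counts in EV and 100.04, 85.0 and 95.8 in the libraries labelled HDAC8 (log2 fold change -0.15, interval -1.23 to 0.93). USP18 (chr22:18150118-18177397), which takes ISG15 off its targets and also damps signalling at the receptor, had 352.3, 290.5 and 255.1 against 109.5, 51.2 and 89.3. It fell by 1.84 on the log2 scale (SE 0.46, DESeq2 adjusted p = 0.00098), to 0.279 of the EV level. A share of 36.4% of the 100-base stretches of USP18 occurs in other genes, among them USP41, and the sum of USP18 and USP41 was 311.8 ± 58.9 normalized counts (SD, n = 3) in EV and 96.2 ± 42.3 (SD, n = 3) in the libraries labelled HDAC8. The ligase gene HERC5 and HERC6, a gene of the same family, were not called (-0.29 and -0.37, DESeq2 adjusted p = 0.640 and 0.723).

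The enzymes between ISG15 and its ligases are not among the 53 members and belong to the other genes of the pathway, among which UBA7 and UBE2L6 are named for the size of their fall. UBA7, which activates ISG15, had 295.7, 285.8 and 221.7 normalized counts in EV and 37.6, 21.5 and 58.8 in the libraries labelled HDAC8 (log2 fold change -2.77, SE 0.52, DESeq2 adjusted p = 3.9e-06). UBE2L6, the conjugating enzyme that takes ISG15 over from UBA7, had 593.5, 806.9 and 724.1 against 232.6, 142.4 and 218.9 (-1.84, SE 0.32, DESeq2 adjusted p = 3.06e-07). Both transcripts were lower in all 3 libraries labelled HDAC8. TRIM25, an ISG15 ligase outside the rule for named genes and also named after its values were seen, was lower as well (-0.89, SE 0.15, DESeq2 adjusted p = 3.67e-07), with any 1 library left out too.

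**Figure D4:**
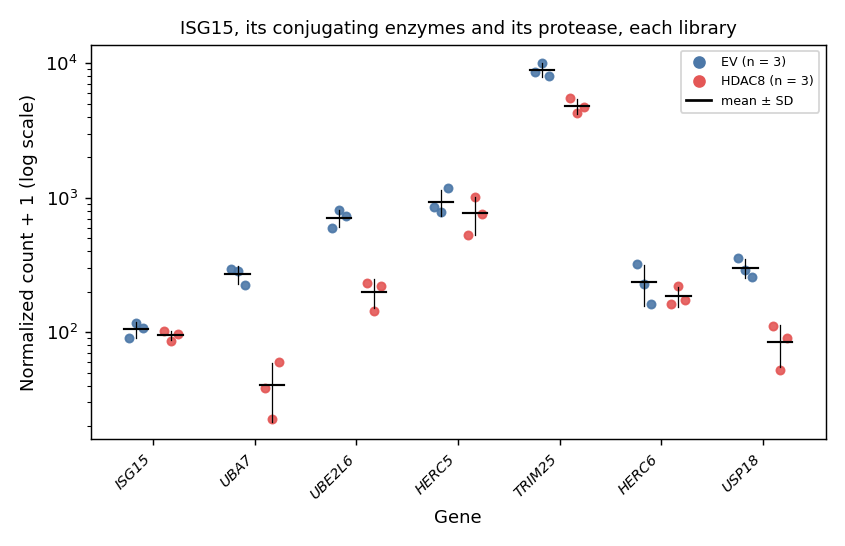
Normalized counts + 1 (log axis) of ISG15, its activating enzyme (UBA7), conjugating enzyme (UBE2L6), ligases (HERC5 and TRIM25) and protease (USP18), and of the HERC family gene HERC6, in each library, EV in blue and HDAC8 in red, with means and SD (n = 3). UBA7, UBE2L6, TRIM25 and USP18 separate by group, while ISG15, HERC5 and HERC6 overlap.

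Among the members best known from the interferon gamma response, 2 were lower and 1 was higher. PSMB9 (chr6:32844136-32859851), a subunit of the immunoproteasome, had 116.4, 189.6 and 199.98 normalized counts in EV and 24.8, 5.12 and 11.98 in the libraries labelled HDAC8 (log2 fold change -3.58, SE 0.71, adjusted p = 1.23e-05 by DESeq2). PSMB8, the immunoproteasome subunit gene next to it, had 239.1, 349.3 and 273.9 against 255.7, 219.2 and 242.8 and was not called (-0.26, interval -0.98 to 0.45). PSMB9 overlaps TAP1 on the other strand and meets PSMB8 at its start in GENCODE release 44, and whether reads were counted by strand is not given in the sources used here, so their reads may be mixed.

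The guanylate-binding proteins are GTPases that attack the vacuoles of intracellular microbes. GBP1 (chr1:89051882-89065360) had 382.7, 196.1 and 327.1 normalized counts in EV and 49.6, 143.4 and 96.9 in the libraries labelled HDAC8 (log2 fold change -1.65, SE 0.50, adjusted p = 0.0115 by DESeq2). GBP2 (chr1:89106132-89150456), a neighbour on the same strand, had 293.6, 394.1 and 318.2 against 656.7, 563.3 and 565.2 (log2 fold change 0.83, SE 0.29, adjusted p = 0.034 by DESeq2). The pair thus went in opposite directions, and for both the groups did not overlap. Both calls were lost in some fits with 1 library left out, which have less power, while the directions were kept. GBP1 lost the call without EV 1 (adjusted p = 0.155) or EV 3 (0.0923), in a range of 0.0012 to 0.155 over 15 alternatives of DESeq2, edgeR and limma-voom. GBP2 kept it when EV 2 was left out and lost it without any of the other 5 libraries and with a replicate block, in a range of 0.0056 to 0.183.

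The remaining interferon-induced proteins gave 3 lower members. IFI35 (chr17:43006740-43014456), which binds the STAT-interacting protein NMI, had 303.0, 424.9 and 410.8 normalized counts in EV and 91.5, 95.2 and 54.4 in the libraries labelled HDAC8 (log2 fold change -2.24, SE 0.42, DESeq2 adjusted p = 2.8e-06). LGALS3BP (chr17:78971238-78979947), a secreted glycoprotein that binds galectins, had 35819, 53713 and 39353 against 29871, 26373 and 27941 (-0.61, SE 0.16, DESeq2 adjusted p = 0.0015). IFI6 (chr1:27666064-27672212), a small membrane protein of mitochondria and the endoplasmic reticulum, had 1979, 2275 and 2152 against 1030, 1579 and 1592 (-0.61, SE 0.21, DESeq2 adjusted p = 0.0329). The last pair lay close to the fold change minimum. With size factors from total counts both lost the call (log2 fold change -0.56 for LGALS3BP and -0.57 for IFI6). LGALS3BP also lost it without EV 2 (-0.42) or HDAC8 2 (-0.57), and IFI6 without EV 1 (-0.66), EV 2 (-0.56), EV 3 (-0.61) or HDAC8 1 (-0.43) and in edgeR (-0.62, adjusted p = 0.068, in a range of 0.0103 to 0.146 over 15 alternatives). A share of 16.4% of the 100-base stretches of IFI6 also occurs in LINC02574.

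Restriction factors of the TRIM and SAMD9 type and the ADP-ribosylation and PML body genes held no called member. TRIM21, a cytosolic antibody receptor, had 246.4, 241.0 and 163.5 normalized counts in EV and 110.3, 83.0 and 162.3 in the libraries labelled HDAC8 (log2 fold change -0.87, SE 0.47, DESeq2 adjusted p = 0.255). SAMD9 (-0.69, DESeq2 adjusted p = 0.0828) and SAMD9L (-0.76, 0.224), which are neighbours and halt protein synthesis in infected cells, likewise did not overlap between groups and did not pass. PARP9, DTX3L and PARP14, which modify proteins with ADP-ribose and ubiquitin and lie together on chromosome 3, and the nuclear body genes SP100 and PML ranged from -0.14 to 0.36, with overlapping groups throughout.

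A set of 11 members had a mean normalized count under 50. EPSTI1 was at 0 in every library, CMPK2 and TRIM22 had reads in 1 library each, and IFI44L and XAF1 in 1 EV library each. IFI44 had 38, 11 and 0 reads in EV and 0 in each library labelled HDAC8, so the groups overlapped (DESeq2 adjusted p = 0.103). Its EV mean was 5.63-fold over a floor of 3 reads per library. That ratio leaves out the spread in EV (16.7 ± 20.7 normalized counts, SD, n = 3). RSAD2 (viperin), OAS2, OASL and MX2 had at most 20 reads in any library. IFI27 reached 12 to 96 reads in EV and 26 to 64 in the libraries labelled HDAC8. For OAS2, OASL, MX2, IFI44L and XAF1 DESeq2 gave no adjusted p, and differences in these members were not detectable at this depth.

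Per transcript length the members spanned a wide range. In TPM (reads scaled by transcript length and library, with the length of the canonical GENCODE transcript), LGALS3BP stood first with 1139 ± 195 in EV (SD, n = 3), followed by IFITM3 with 254 ± 52.5, IFI6 with 154 ± 3.65 and ADAR with 96.2 ± 4.51, each apart from the next by more than its SD. From IFNGR2 (65.5) downward, neighbours in the order mostly did not differ beyond their spread. BST2 moved furthest in rank between the groups: it stood at rank 6 in EV with 57.7 ± 7.22 TPM and at rank 41 in the libraries labelled HDAC8 with 1.08 ± 1.44 TPM. PSMB9 went from rank 24 to 42, IFITM1 from 22 to 36 and IFI35 from 17 to 30, while IFITM2 went from 29 to 14 and GBP2 from 36 to 24. At least 1 TPM was reached by 43 members in EV and 41 in the libraries labelled HDAC8, and at least 10 TPM by 23 and 21.

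Members that lie close together in the genome mostly did not share a call, although several groups shared a direction. In GRCh38 (GENCODE release 44) the members formed 12 groups with gaps of at most 300000 bases, and in none were all members called in the same direction. The OAS group on chromosome 12 had 1 of 3 members lower, the chromosome 11 group of the IFITM genes and IRF7 had 2 of 4 (IFITM1 and IFITM3), PSMB8 and PSMB9 had 1 of 2, and the GBP pair 1 in each direction. The IFIT, PARP9, HERC, SAMD9, MX, RSAD2, IFI44 and chromosome 21 receptor groups had no call. Log2 fold changes were nevertheless negative throughout the HERC, SAMD9, PSMB, MX and IFI44 groups, with few reads for MX2, IFI44 and IFI44L. OAS1 (-0.99) was lower beside OAS3 (-1.23), while OAS2, with few reads, was positive. Both signs occurred in the IFIT, IFITM, PARP9, GBP and receptor groups.

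Of 101 other genes of the interferon pathway, 15 (14.9%) were called lower and 1 (0.99%) higher, beside 5.44% and 5.57% of all genes with an adjusted p. Of the 101, 67 had an adjusted p. The 22 interferon genes themselves gave no call: 15 were at 0 in every library, among them IFNB1 and IFNG, and none reached a mean of 50 normalized counts. IFNA7 had 16, 7 and 14 reads in EV and 0 in the libraries labelled HDAC8, too few for an adjusted p, and the interferon alpha genes are near-identical copies. Of 18 signalling genes, 4 (22.2%) were lower, namely UBA7, UBE2L6, the kinase gene JAK2 (-0.59, SE 0.21, DESeq2 adjusted p = 0.0428) and the repressor IRF2 (-0.84, SE 0.27, DESeq2 adjusted p = 0.0181). JAK2 and IRF2 were named after their values were seen. JAK2 lost the call whichever of the 6 libraries was left out (DESeq2 adjusted p from 0.0569 to 0.342). IRF2 lost it for every library but HDAC8 1 (DESeq2 adjusted p from 0.0135 to 0.105). Of 61 other induced genes, 11 (18.0%) were lower and 1 (1.64%) was higher. Among those with a mean of at least 50 normalized counts and groups apart, the largest falls were those of DHX58, which codes for the RNA sensor LGP2 (-4.32, SE 0.89, DESeq2 adjusted p = 3.75e-05, not called in limma-voom), APOL6, an apolipoprotein L family gene (-2.49, SE 0.19, DESeq2 adjusted p = 1.48e-35), and the complement protease gene C1R (-2.14, SE 0.43, DESeq2 adjusted p = 2.48e-05). APOL1, under that mean and named after its values were seen, had 56.6, 40.2 and 118.2 normalized counts in EV and 0 in each library labelled HDAC8. Its EV mean was 24.1-fold over a floor of 3 reads per library, a ratio that leaves out the spread in EV (71.7 ± 41.1 normalized counts, SD, n = 3). TMEM140, a membrane protein gene, was the 1 called higher (0.82, SE 0.26, DESeq2 adjusted p = 0.0154), and it lost the call without EV 1, EV 3 or HDAC8 3 (log2 fold changes 0.71, 0.80 and 0.82).

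Library HDAC8 1 stood apart from HDAC8 2 and HDAC8 3 for part of the members. IRF1, IFIT2 and PSMB9 were over 2 times as high in HDAC8 1 as in either of the others, and BST2 and IFIT5 were lower. Without HDAC8 1, the counts of calls were again 10 lower and 1 higher, but 9 of the 11 reported genes were shared: GBP2 and IFI6 lost the call, while IFIT2 was gained as lower (log2 fold change -2.89) and IFIT5 as higher (0.81). BST2, PSMB9, IFI35, USP18, OAS3 and IFITM3 were called lower with any of the 6 libraries left out.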

How the data were processed

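RNA-seq of 6 libraries of WM164 cells (3 EV and 3 HDAC8, grouped by the treatment label) was analysed. Trimmomatic (trimming), STAR (alignment to transcripts) and RSEM (estimation) were the tools the authors used, and the deposited values are unscaled expected counts, in which RSEM divides an ambiguous read among candidate genes. Genome build, annotation release and strand setting are not given in the sources used here, and the labels and the methods name different extraction kits. No other column of values was present.

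Rounded expected counts were fitted over the whole table with DESeq2 1.42.0 (R 4.3.3, two-sided Wald test, its own size factors of 0.918 to 1.17, no covariate, Benjamini-Hochberg adjustment) for the 26162 genes with a total of at least 10 counts. Of these, 5141 had no adjusted p. Calls needed an adjusted p under 0.05 and a log2 fold change of 0.58 or more in either direction, the thresholds of the study applied to adjusted p. Total counts were 34741083 to 42041462, so a floor of 3 counts was 2.57 to 3.27 normalized counts; floors cover counting error only. Intervals are at 95%. The members, the pathway and marker lists and the rule for named genes (all members, HDAC8, and up to 5 rises and 5 falls of other pathway genes whose groups stayed apart at a mean of 50 or more) were chosen with earlier results of these data known. Of the markers, 1 is not reported here. Positions and transcript lengths came from GENCODE release 44 (GRCh38), joined by identifier (56558 of 60504 found). Shared sequence was the share of 100-base stretches of the canonical transcript found in transcripts of another gene.

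Alternatives were edgeR 4.0.16 (quasi-likelihood test), limma-voom (limma 3.58.1), other size factors and filters, a replicate block, no mitochondrially encoded genes, other thresholds, and each library left out; normalization within 20 bins of GC content, and a median with floor-level members at their bound, were chosen later, after seeing the data. No pair of libraries held identical values, and the counts of libraries of a group did not agree within sampling noise (chi-square per degree of freedom 27.6 to 168).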

Additional observations from a re-analysis of the deposited data

How the results depend on the processing

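The 11 called members were refitted in 15 alternatives, which gave 163 values (1 per gene and alternative, less those filtered out); the direction was kept in all 163 and the call in 145, and 5 of the alternatives kept all 11 calls (limma-voom, upper quartiles, no filter, no mitochondrially encoded genes and GC bins). USP18, OAS3, IFITM3, BST2, PSMB9 and IFI35 kept the call wherever they were tested, though BST2 and PSMB9 fall outside a filter of at least 10 counts in every library. With that filter 11 members were lower and 2 higher (IFITM2, ISG20, OAS1 and SAMD9 gained). An unadjusted p under 0.05 gave 16 lower and 2 higher members, and 1856 lower and 1839 higher genes in all. The number of members called was 7 to 11 lower and 0 to 1 higher when 1 library was left out, 12 to 15 lower and 0 to 2 higher for the other pathway genes, and 746 to 1378 lower and 877 to 1218 higher over all genes, with the fewest lower without EV 3. The median log2 fold change of the members ran from -0.55 (without HDAC8 2) to -0.31 in these fits. The cause of these changes was not tested.

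Replicate numbers are shared by the groups, but same-numbered libraries did not deviate together (correlations of -0.0273, -0.0663 and 0.0399), no library correlated best with its own number, and nothing in the labels ties them. A fit with the replicate block gave 11 members lower (IFIT2 gained) and 0 higher (GBP2 lost), 0 other pathway genes higher (TMEM140 lost), and a median of -0.48.

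Some members that were not called changed sign. OASL, with at most 14 reads in a library, went from 0.98 to -0.91 with the replicate block. IFI27 was at 0.14 in limma-voom and 0.035 with the replicate block, and RSAD2 at 0.028 with size factors from total counts and 0.023 within GC bins, against -0.34 and -0.014 as reported. With 1 library left out, the log2 fold change ran from -0.038 to 0.29 for IFNAR1, -0.42 to 0.090 for IFNAR2, -0.025 to 0.32 for IRF9, -0.19 to 0.0050 for PARP14, -0.82 to 0.31 for IFI27, -1.14 to 0.075 for DDX60, -0.60 to 0.57 for RSAD2, -1.05 to 0.22 for IRF1 and -0.030 to 0.20 for SP100. At this depth none of the 11 members under a mean of 50 normalized counts was called, and the part of depth in this was not tested. Alternatives with 2 libraries in a group have less power.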

Other observations

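Genes that start within 1000 bases of a member, head to head on the other strand, gave values that no comparison above uses. The start of BST2 faces that of BISPR, a long noncoding RNA gene, at 56 bases and that of MVB12A, which codes for an endosomal sorting subunit, at 92 bases. BISPR had 126.9, 77.5 and 126.1 normalized counts in EV and 27.4, 30.7 and 25.0 in the libraries labelled HDAC8 (log2 fold change -1.99, SE 0.67, adjusted p = 0.0291 by DESeq2). MVB12A had 379.6, 640.7 and 497.5 against 552.4, 442.4 and 529.2 and was not called (0.0057, SE 0.30). BST2 and BISPR were thus both lower in every library labelled HDAC8, while MVB12A overlapped between the groups. Reads of genes that overlap on opposite strands cannot be told apart without the strand setting.

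The outermost GENCODE start of ISG15, which was not called, is at chr1:1001138. It lies 966 bases from that of HES4, a transcription factor gene of the Notch response. The ISG15 promoter printed above (chr1:1013337-1013496) belongs to a different start, which does not lie within 1000 bases of HES4. HES4 had 31.5, 71.0 and 42.4 normalized counts in EV and 203.5, 138.3 and 167.7 in the libraries labelled HDAC8, and was called higher (log2 fold change 1.81, SE 0.58, DESeq2 adjusted p = 0.0172). LIPA, which codes for a lysosomal acid lipase and starts 11 bases from IFIT5, was not called (-0.17, SE 0.23), and like IFIT5 it was lowest in HDAC8 1 (1367 normalized counts against 2738 and 2507 in HDAC8 2 and 3). STOML1, which starts 51 bases from PML, was not called (0.82, SE 0.62) and ran from 58.4 to 439.5 normalized counts within the libraries labelled HDAC8. These 5 neighbours were listed by distance, strand and a total of at least 10 counts, and not by their values. Opposite-strand pairs whose starts run past each other, such as PARP9 with DTX3L and PSMB8 with PSMB9, were left out.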
